A study of Pan troglodytes with 38 samples.

Results

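The atrial and ventricular identity genes are 10 genes whose expression separates the chambers of the mammalian heart. They were taken by symbol from the gene count table: MYL7, MYL4, SLN, BMP10 and NR2F1 mark the atria, and MYL2, MYL3, HEY2, IRX4 and IRX5 mark the ventricles. Each symbol matched 1 Ensembl gene, so 10 of the 31373 genes in the table are described here. The data are polyA RNA-seq libraries of frozen post-mortem heart tissue from 38 chimpanzees, 1 library each. The labels place all 38 animals in 1 group, heart, and give no genotype, treatment or age and not the chamber that was sampled. RNA of 17 animals was extracted earlier and RNA of 21 later. Library preparation may also have differed between these sets, so its part in a difference between the extractions cannot be told apart. According to the paper, age at death and research center were recorded, and some chimpanzees had HBV or HCV challenges. These were not used here, and their parts in a difference between the extractions were not tested. Some animals are close relatives, and each test below treats them as independent. The human orthologs were not analysed here.

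In the adult heart, the atria and the ventricles build their sarcomeres from different myosin light chains. The regulatory light chain is encoded by MYL7 in the atria and by MYL2 in the ventricles, and the essential light chain by MYL4 in the atria and by MYL3 in the ventricles and slow skeletal muscle. Atrial myocytes also use sarcolipin, encoded by SLN, to restrain the calcium pump of the sarcoplasmic reticulum, and BMP10 is a secreted growth factor of the BMP family made mainly by the right atrium. NR2F1 is a nuclear receptor that holds the atrial program, while HEY2, a transcriptional repressor downstream of Notch, and the Iroquois factors IRX4 and IRX5 act in ventricular myocytes.

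Levels are given as CPM, the count of a gene per 1000000 counts of the library's orthologous exon total. These totals ran from 14408012 to 81603350 with a median of 41226040 (n = 38). Exon lengths were not used here, so a CPM value compares animals and not genes. In bulk tissue, fewer cells of a type and less RNA per cell cannot be told apart. Of all libraries, 549 had a profile of the 10 genes unlike every other. Its total of 47209995 and its mitochondrial share of 29.3% of gene counts lay within the range of the rest. The libraries 537 and Little_R stood apart in another way: of the 37 others they lay farthest from the median of both the cardiomyocyte and the fibroblast marker sums. Their mitochondrial shares were 60.1% and 48.3% against a median of 30.4%, and Little_R had the smallest total. The share alone did not single out Little_R, since 558, 529 and 4X0339 had 53.9%, 52.7% and 51.7%. Results are therefore given with and without 549 or over the other 37 animals alone, and without 537 and Little_R where that matters. The 8 cardiomyocyte markers summed to 73451 CPM in 549 and to between 13606 and 108595 CPM in the other 37, so muscle transcripts were abundant in every library.

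Among the atrial genes, MYL7 ranged in the other 37 animals from 6.81 CPM in 554 through a median of 126 CPM to 929 CPM in 4X0339. In 549 it stood at 12747 CPM, 13.7-fold above the highest of them. MYL4 lay between 9.09 and 183 CPM in the other 37 animals, with a median of 44.3 CPM, and reached 6878 CPM in 549, a 37.6-fold step above 4X0339. The 2 atrial light chains thus left a wide empty interval between 549 and all other hearts.

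SLN was barely present outside 549. It lay between 0.0416 and 5.88 CPM with a median of 0.609 CPM in the 37 animals, and at 177 CPM in 549. BMP10 showed the largest step among the genes with a symbol that reached 6 CPM in 549. It had 0 counts in 15 of the 37 animals, which allows levels of up to 0.0561 to 0.208 CPM (3 counts in each library). The median was 0.0296 CPM and the highest value 1.32 CPM in 570. In 549 BMP10 was at 5920.1 CPM, or 279486 counts, which is 4480.1-fold above 570. NR2F1 had a median of 0.499 CPM and a highest value of 3.82 CPM in Little_R, and was at 37.6 CPM in 549. These 3 genes reached 6 CPM in no animal but 549.

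The ventricular genes were the mirror image. MYL2 ranged from 902 CPM in Little_R through a median of 12482 CPM to 24489 CPM in 522, and was lowest of all in 549 with 315 CPM. Animal 495 also had 902 CPM of MYL2. MYL3 lay between 1979 CPM in Little_R and 13439 CPM in 4X0339 with a median of 7757 CPM. Its value of 40.9 CPM in 549 was 48.4-fold below the lowest of the others. IRX4 lay between 4.44 CPM in Little_R and 40.8 CPM in 676, with a median of 22.1 CPM. In 549 it was at 0.424 CPM, or 20 counts. The other ventricular factors came closer to the rest, HEY2 at 20.4 CPM in 549 against 24.2 to 171 CPM and IRX5 at 1.48 CPM against 1.97 to 67.6 CPM. HEY2 in 549 was 1.19-fold and IRX5 1.33-fold below the next lowest animal, so for these the gap was far smaller than the spread among the others.

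**Figure D1:**
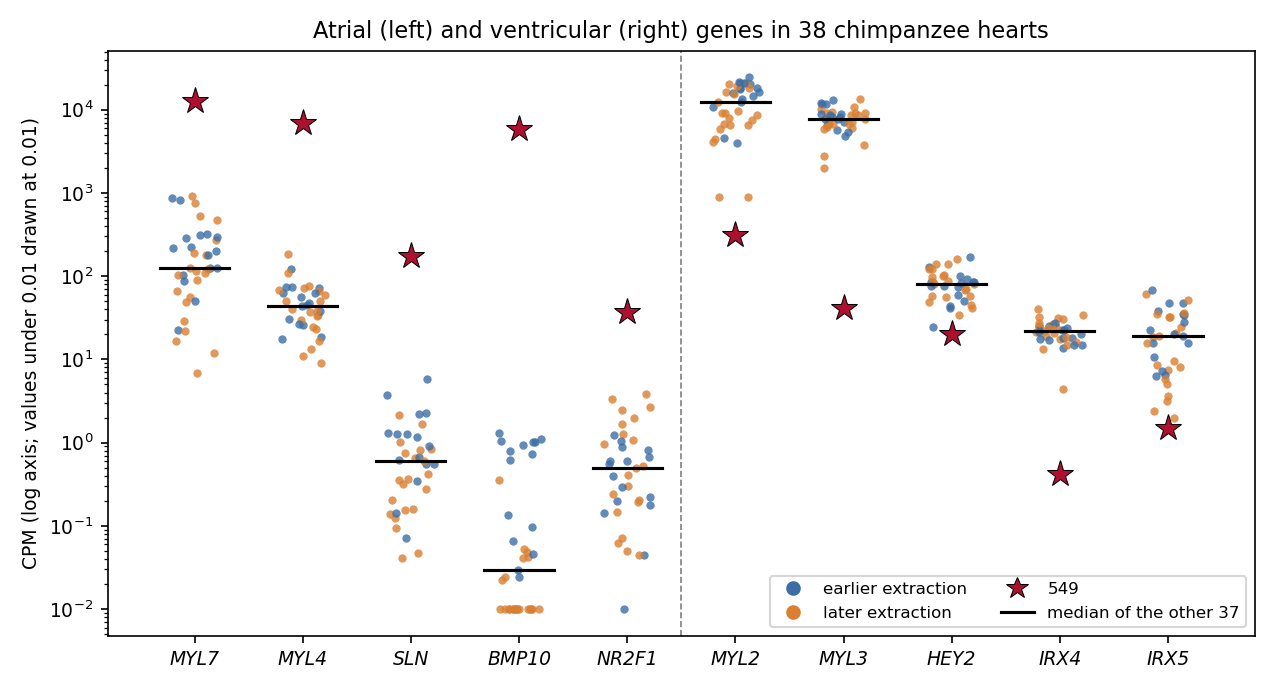
CPM of each gene (log axis, values under 0.01 drawn at 0.01) in all 38 animals, with points for the 37 animals coloured by extraction, a black line at their median and a star for 549. The star lies above all points for the 5 atrial genes and below all points for the 5 ventricular genes.

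In sum, 549 lay above all 37 others for 5 of 5 atrial genes and below all of them for 5 of 5 ventricular genes. Of the 13121 genes that reached 6 CPM in any animal, 549 was the highest of all animals for 3.14% and the lowest for 1.11%. The 412 genes in which it was highest lie within the range of 26 to 1749 such genes in the other animals, so their number does not set it apart. It exceeded the highest other animal by more than 4-fold for 0.274% of genes, and all 5 atrial members were among them. SLN, BMP10 and NR2F1 passed the 6 CPM filter through 549 alone. The members were chosen with earlier results of these data known, so these counts describe 549 and test nothing. Since 549 is 1 library, these differences have no replicate.

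The share of the atrial gene in the counts of a light chain pair depends on no library total. MYL7 made up 97.6% of the MYL7 and MYL2 counts in 549, with an exact (Clopper-Pearson) 95% interval of 97.5 to 97.6% that covers counting error only. In the other 37 animals it made up between 0.0784% in 554 and 9.07% in 495, with a median of 1.18%. MYL4 made up 99.4% of the MYL4 and MYL3 counts in 549 and between 0.155% in 4X0267 and 1.34% in 4X0339 elsewhere, with a median of 0.589%. No animal lay between these ranges and 549 on either share. Over the 37 animals the 2 shares, on the log2 scale, were only loosely related, with a Pearson r of 0.28 (permutation p = 0.0961) and a Spearman rho of 0.22 (permutation p = 0.179). Without 554 and 554_2, the animals farthest from the median MYL7 share, r was 0.12. The rho was -0.0059 within the 16 earlier animals and 0.36 within the 21 later ones.

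Of the 37 animals, 5 had more than 5% of MYL7. In 495 the MYL7 share was the highest of the 37, yet its MYL7 level of 89.9 CPM was below the median and its MYL4 share was 0.164%. MYL2 in 495 was at 902 CPM, as in Little_R, whose MYL7 share was 1.31% with MYL7 at 11.9 CPM. IRX5 in 495 was at 1.97 CPM, the lowest of the 37. In 4X0339, with 8.86%, both atrial light chains were the highest of the 37, while SLN was the lowest of all at 0.0416 CPM and BMP10 had 0 counts. The remaining 3, 724, 4x0025 and 529, had 8.29%, 7.50% and 6.66% of MYL7.

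**Figure D2:**
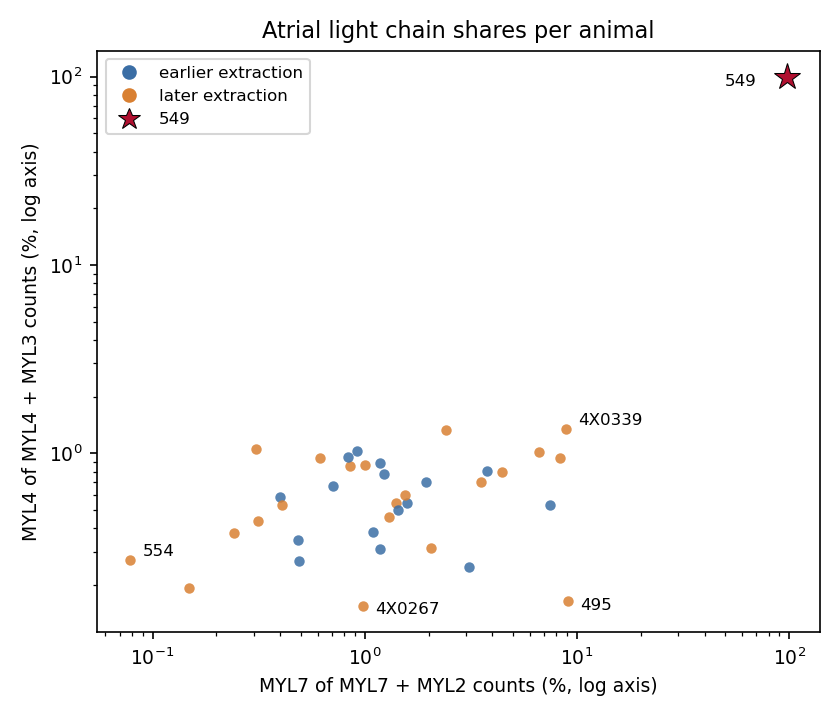
Share of MYL7 in the counts of MYL7 and MYL2 (x axis, %, log) against the share of MYL4 in the counts of MYL4 and MYL3 (y axis, %, log), 1 point per animal coloured by extraction and a star for 549. 549 sits at 97.6% and 99.4%, and all other animals below 9.07% and 1.34%.

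Other genes of each chamber were read from lists that had been written with earlier results of these data known. Of the 14 genes of the wider atrial list, 10 were higher in 549 than in all 37 others. Among all genes that reached 6 CPM in any animal, 3.14% were. MYBPHL, a myosin-binding protein H-like protein of the atria, was at 364 CPM against at most 4.14 CPM. The background potassium channel gene KCNK3 was at 302 CPM against at most 59.0 CPM, and the hepcidin gene HAMP at 51.9 CPM against at most 8.02 CPM. The inward rectifier subunits of the acetylcholine-gated potassium current were also above the others, KCNJ3 at 13.2 against at most 6.03 CPM and KCNJ5 at 115 against at most 78.4 CPM. The same held for the calcium channel gene CACNA1D, the connexin gene GJA5 and the T-box factor TBX5, with TBX5 at 291 against at most 121 CPM. The natriuretic peptide gene NPPA and the fast myosin heavy chain gene MYH6 were highest in 549 too, but not by much. NPPA stood at 21020 CPM in 549 and at 16304 CPM in 4X0354, and MYH6 at 26143 CPM in 549 and at 23185 CPM in 462. In neither of these 2 genes was there a gap of the size seen for the light chains. NR2F2, KCNA5 and DHRS9 lay within the range of the others.

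Of the 10 matched genes of the wider ventricular list, 6 were lower in 549 than in all others. Among all genes that reached 6 CPM in any animal, 1.11% were. The slow myosin heavy chain gene MYH7 was at 652 CPM against at least 2232 CPM. IRX6 was at 0.339 CPM against at least 1.27 CPM and a median of 48.5 CPM, and HAND1, a basic helix-loop-helix factor of the left ventricle, at 0.508 CPM against at least 5.48 CPM. IRX3, FHL2 and PRDM16 completed the group. PLN, the calcium pump inhibitor phospholamban, was at 381 CPM, inside the range of 111 to 1391 CPM. Of the 8 conduction system genes, HCN4, which encodes the main pacemaker channel, was above all others with 76.1 against at most 33.2 CPM. SHOX2 was at 11.5 CPM in 549 and at 15.1 CPM in Little_R, and TBX3 was at 51.0 CPM against up to 145 CPM.

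**Figure D3:**
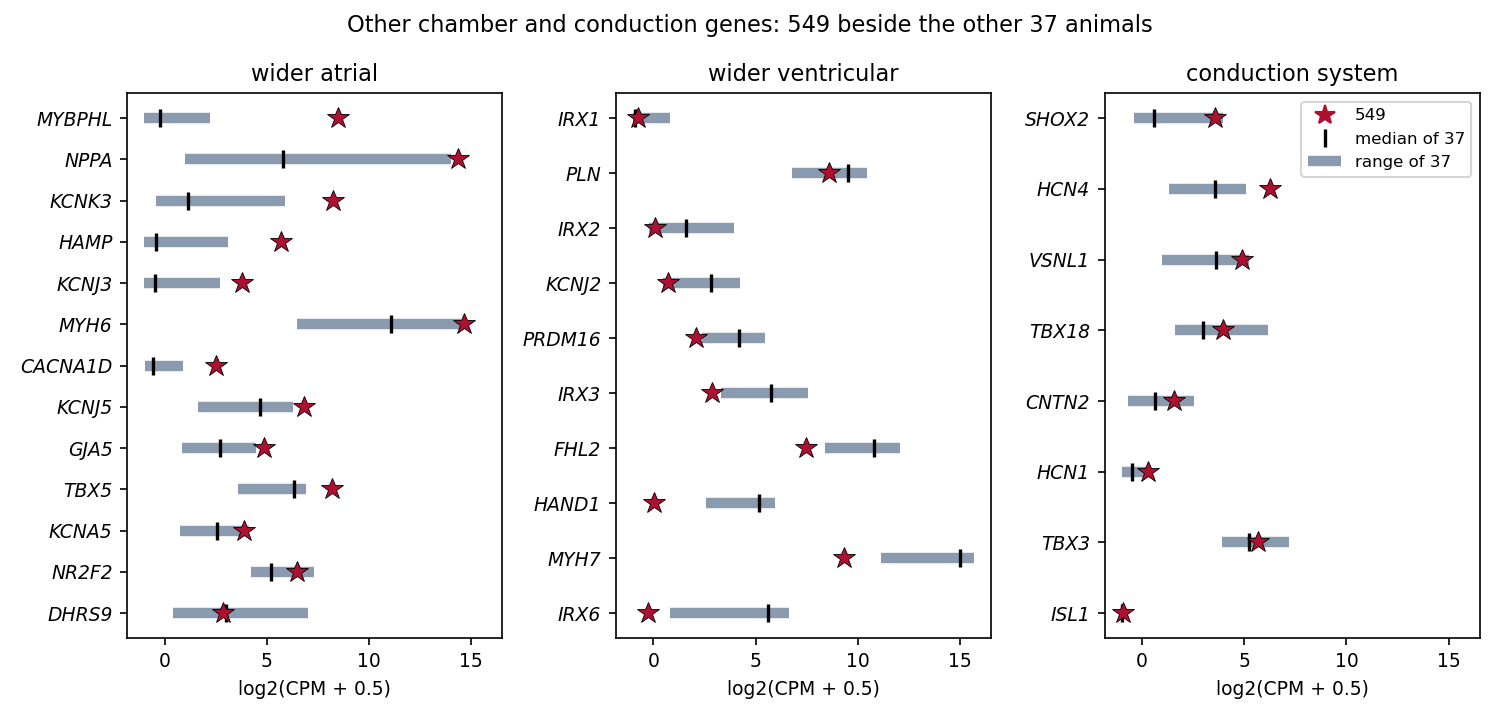
Level in log2(CPM + 0.5) of the genes of the 3 wider lists that are reported, with a star for 549, a bar for the range of the other 37 animals and a tick for their median. The star lies right of the bar for 10 of the atrial genes drawn, left of it for 6 of 10 ventricular genes and right of it for HCN4 alone among 8 conduction genes.

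Ranked by the ratio to the highest other animal, the 15 leading genes of 549 were BMP10, MYBPHL, KCNF1, MYL4, CHRNE, CRHBP, SLN, SNX22, MYL7, PCSK1N, TMEM255A, CACNA2D3, SBK2, TSPAN8 and NR2F1. All 5 atrial members were among them, but the ranking took only genes at 6 CPM or more in 549. The potassium channel subunit gene KCNF1 was at 82.4 CPM against at most 1.29 CPM, CRHBP, which encodes a binding protein of corticotropin-releasing hormone, at 157 against at most 4.95 CPM, and the sorting nexin gene SNX22 at 384 against at most 22.3 CPM. Among the marker lists of other cell types, the 4 smooth muscle markers summed to 2189 CPM in 549, above the range of 191 to 1617 CPM in the others. Of these, ACTA2 was above all others at 1114 CPM against at most 625 CPM, and MYH11, TAGLN and CNN1 were not. The sums for fibroblasts, adipocytes, endothelium, mesothelium, Schwann cells, skeletal muscle and red cells lay within the range of the others. The part of smooth muscle in the atrial values was not tested.

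Which genes follow the atrial light chain was asked with edgeR's quasi-likelihood test on the gene counts, with the log2 level of MYL7 as the predictor and Benjamini-Hochberg adjustment over all genes tested. A slope is the log2 change of a gene per 1 log2 of MYL7, given with its SE. Over all 38 animals 1.62% of 16909 genes passed an adjusted p of 0.05, among them 5 of the other 9 members. BMP10 had a slope of 1.91 ± 0.12, MYL4 of 0.68 ± 0.05, SLN of 0.67 ± 0.09 and NR2F1 of 0.39 ± 0.09, and IRX5 fell with a slope of -0.38 ± 0.11. These values were set to a large degree by 549. Without it 1.47% of 16413 genes passed, and of the members MYL4 alone, with a slope of 0.33 ± 0.08 (edgeR adjusted p = 0.0337, n = 37). SLN then had a slope of 0.03 ± 0.17 and NR2F1 of -0.12 ± 0.15. BMP10 stood at 0.75 ± 0.28 (edgeR adjusted p = 0.162) and IRX5 at -0.32 ± 0.11 (edgeR adjusted p = 0.117), the signs they had with 549. MYL2, MYL3, HEY2 and IRX4 passed neither with 549 nor without it, and their slopes without it were 0.0095 to 0.20. The MYL4 call was lost when 4X0333, 4X0339 or Little_R was left out as well, with an adjusted p of up to 0.161, and with the extraction as a covariate (edgeR adjusted p = 0.0623). Its slope stayed at 0.26 or more whichever animal was left out and was 0.33 with the covariate.

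Of the wider atrial list, MYBPHL, KCNJ3, HAMP, KCNK3 and CACNA1D rose with MYL7 over the 38 animals, 5 of 14 genes. Without 549 MYBPHL alone rose, with a slope of 0.42 ± 0.10 (edgeR adjusted p = 0.0230). That call was lost with the extraction as a covariate, at a slope of 0.43 ± 0.11 (edgeR adjusted p = 0.0549), and without 537 and Little_R, at 0.39 ± 0.10 (edgeR adjusted p = 0.104). The median slope of the list was 0.14 with and 0.02 without 549, beside -0.0030 and -0.0017 over all genes. IRX2, a further Iroquois factor, fell with MYL7 in both fits, with slopes of -0.44 ± 0.09 and -0.45 ± 0.10, as the only member of the ventricular list that passed. Without 537 and Little_R too, its slope was -0.42 ± 0.11 (edgeR adjusted p = 0.114). No conduction gene passed in either fit. Without 549, calls in all were 67 higher and 175 lower, and 32 higher and 192 lower when the orthologous exon totals replaced TMM. The count of 242 calls fell to 9 without Little_R and rose to 516 without 529.

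The same test with MYL2 asked which genes follow the ventricular light chain, and here many genes moved. Over the 38 animals 32% of 17186 genes passed, and without 549 43.5% of 16860, so a call of a member says little by itself. The 7333 genes of the latter fit became 3866 without 537 and Little_R and 4114 with the mitochondrial share as a covariate. With 549, 8 of 9 members passed: all 5 atrial genes fell with MYL2 with slopes of -0.62 to -2.11, MYL3, IRX4 and IRX5 rose, and HEY2 did not pass. Without 549 the atrial genes parted. MYL4 rose with MYL2, with a slope of 0.55 ± 0.15 (edgeR adjusted p = 0.00445), where it had fallen with a slope of -0.83 ± 0.10 in all 38 animals. MYL7 turned from -0.62 ± 0.13 to 0.58 ± 0.27, which did not pass (edgeR adjusted p = 0.0814). NR2F1 kept its direction, with a slope of -0.55 ± 0.18 (edgeR adjusted p = 0.0141). MYL3 rose by 0.29 ± 0.09 per log2 of MYL2 (edgeR adjusted p = 0.00794), and neither IRX4 nor IRX5 passed. The calls of MYL3 and NR2F1 were lost without Little_R, with adjusted p of 0.102 and 0.0872, and that of NR2F1 also with the extraction or the mitochondrial share as a covariate, with adjusted p of 0.0624 and 0.142. MYL4 was no longer called once both 537 and Little_R were left out with 549 (adjusted p = 0.0744).

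**Figure D4:**
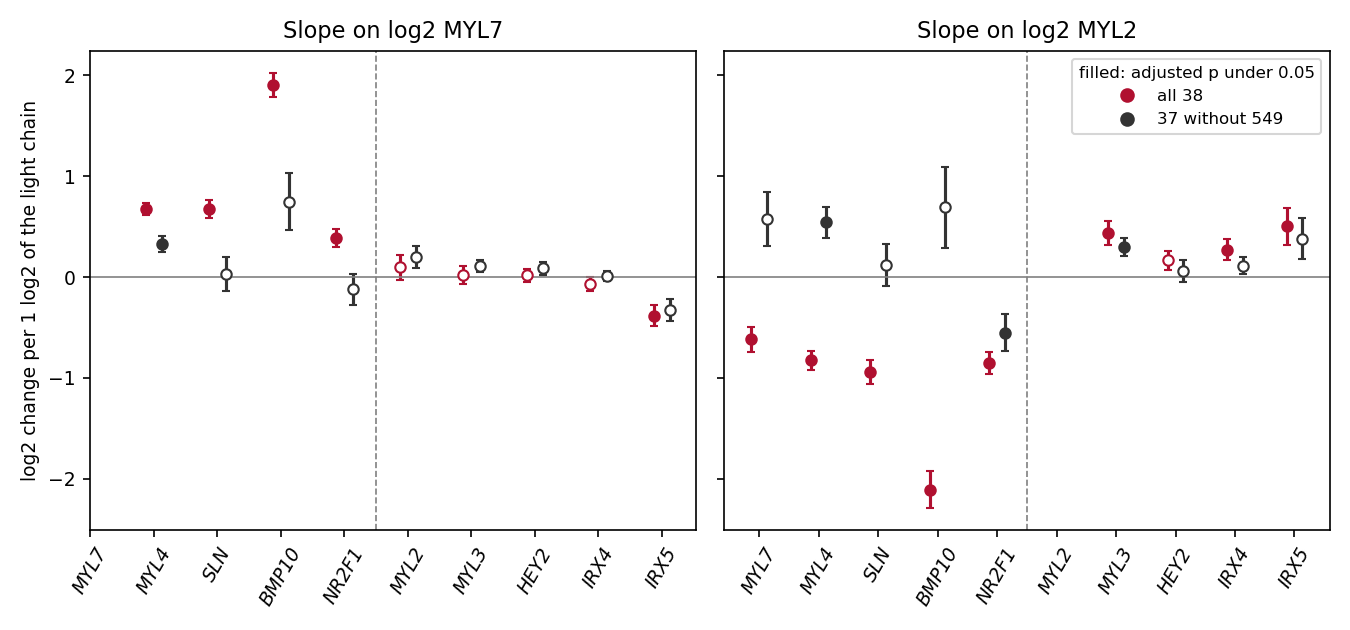
Slope of each gene (log2 change, with SE bars) per 1 log2 of MYL7 (left) and of MYL2 (right) from edgeR, in red for all 38 animals and in black for the 37 without 549, filled where the adjusted p is under 0.05. Without 549, MYL4 is the only filled gene at left, and MYL4, NR2F1 and MYL3 are filled at right.

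Beyond the members, MYH7, IRX6, PLN, FHL2 and HAND1 rose with MYL2 in both fits, with slopes without 549 of 0.67 ± 0.11, 0.84 ± 0.17, 0.54 ± 0.11, 0.53 ± 0.16 and 0.34 ± 0.12. KCNJ2 passed with 549 alone, and IRX1, IRX2, IRX3 and PRDM16 passed in neither fit. Without 549 the calls were thus 5 of 10 genes tested, near the 43.5% of all genes called in that fit. Without 549 the ventricular list had a median slope of 0.31 beside -0.013 over all genes. Without 537 and Little_R as well, that median was 0.15, and MYH7, IRX6 and PLN alone passed. In the atrial list, TBX5 and KCNJ5 rose with MYL2 without 549, while KCNK3, NR2F2 and HAMP fell, so this list did not move as a block. These were 2 higher and 3 lower calls of 14 genes tested, beside the same 43.5% of all genes. The calls of TBX5 and KCNJ5 were lost without 537 and Little_R, with slopes of 0.21 and 0.19, and that of KCNJ5 also with either covariate, while the other 3 held. Of the 7 conduction genes tested, SHOX2, TBX18 and TBX3 fell in both fits. Little_R had the highest level of all 3 among the 37 animals, and without it and 537 SHOX2 alone fell, with a slope of -0.49 ± 0.16, while TBX3 also lost its call with either covariate. VSNL1, a neuronal calcium sensor gene, rose without 549 with a slope of 0.82 ± 0.09. With orthologous exon totals in place of TMM, the median slope over all genes without 549 was -0.12, and the split of 3283 higher and 4050 lower calls became 1446 and 6385.

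Because 549 lies outside the range of the others for every member, relations between members are given over the other 37 animals. They were computed from log2(CPM + 0.5), with two-sided permutation p-values adjusted over the 45 pairs. The closest pair was MYL7 and MYL4, with r = 0.56 (permutation p = 0.00028, adjusted p = 0.00615) and rho = 0.57 (permutation p = 0.00027, adjusted p = 0.00652). Without the 2 animals with the most extreme MYL7, r was 0.49. The rho was 0.26 in the 16 earlier animals and 0.65 in the 21 later ones. It was the only 1 of the 10 pairs of atrial genes that passed by rho. MYL7 and SLN had rho = -0.07 and MYL7 and NR2F1 had rho = -0.03. None of the 10 ventricular pairs passed by rho, and IRX4 and IRX5, which belong to the same family, had rho = 0.0017. By r alone MYL3 and IRX4 also passed, with r = 0.57 (permutation p = 0.00089, adjusted p = 0.00801), and r = 0.17 without Little_R and 537.

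Across chambers, 5 of 25 pairs passed by rho, 1 positive and 4 negative. With 537 and Little_R also left out, 2 negative pairs and no positive pair still passed. MYL4 rose with its ventricular counterpart MYL3, with r = 0.51 (permutation p = 0.00134, adjusted p = 0.01) and rho = 0.47 (permutation p = 0.00392, adjusted p = 0.0441), and r = 0.31 without the 2 most extreme animals. SLN ran against IRX4, with r = -0.54 (permutation p = 0.00085, adjusted p = 0.00801) and rho = -0.56 (permutation p = 0.00029, adjusted p = 0.00652). NR2F1 ran against IRX5, with r = -0.55 (permutation p = 0.00041, adjusted p = 0.00615) and rho = -0.51 (permutation p = 0.00137, adjusted p = 0.0205), and against MYL2, with r = -0.57 (permutation p = 0.00031, adjusted p = 0.00615) and rho = -0.44 (permutation p = 0.00663, adjusted p = 0.0497). MYL7 ran against IRX5, with r = -0.43 (permutation p = 0.00749, adjusted p = 0.0306) and rho = -0.44 (permutation p = 0.00641, adjusted p = 0.0497). The MYL7 and IRX5 rho was -0.71 within the 16 earlier and -0.54 within the 21 later animals. In the other 3 negative pairs the rho was -0.25 to -0.36 within the earlier and -0.40 to -0.69 within the later animals. No pair passed among the 16 earlier animals alone. NR2F1 and MYL2 had r = -0.30 without the 2 animals with the most extreme NR2F1.

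The members also moved with the summed cell type markers. Over the same 37 animals each member was set against 5 measures. These were the cardiomyocyte, fibroblast and smooth muscle markers, the mitochondrial share and the library total. That makes 50 relations, and 9 passed by rho. The share of all genes that pass for these measures was not computed, so this count does not set the members apart from other genes. SLN rose with the summed smooth muscle markers, with r = 0.58 (adjusted permutation p = 0.000778) and rho = 0.66 (adjusted permutation p = 0.00025), and with the fibroblast markers, with rho = 0.60. NR2F1 did the same, with rho = 0.65 for both lists and r = 0.67 and 0.68. Without 537 and Little_R these 4 rho were 0.55 to 0.63, and within the earlier and later animals they were 0.46 to 0.75. MYL3, MYL2 and MYL4 rose with the cardiomyocyte markers, with rho = 0.73, 0.57 and 0.55. IRX4 and MYL3 fell with the fibroblast markers, with rho = -0.44 and -0.46, and without 537 and Little_R these were -0.33 and -0.37. MYL7, BMP10, HEY2 and IRX5 passed by rho for none of the 5 measures. The part of the cell types in the relations between members was not tested.

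Genes outside the members were ranked by their rho to MYL7, MYL2, IRX4 and BMP10. The leading ones were picked from all genes that reached 6 CPM in any animal, so their high rho is in part a result of that choice. Over all 38 animals, the genes with the highest rho to MYL7 were MYL9, a smooth muscle light chain gene, with 0.68, DHRS7C with 0.67 and ERCC1 with 0.65. For MYL2 they were KCNJ4 with 0.81, OXCT1 with 0.80 and the sarcomeric alpha-actinin gene ACTN2 with 0.80. For IRX4 they were HAND1 with 0.77, BCS1L with 0.73 and ACADVL with 0.73, and for BMP10 they were CCDC107 with 0.80, CDC123 with 0.72 and the ribosomal protein gene RPS2 with 0.72. Of the 15 animals without BMP10 counts 14 belong to the later extraction, and the part of the extraction in the BMP10 relations was not tested. Within the earlier animals other than 549 the rho of these 3 genes was 0.72, 0.14 and 0.54, and within the later ones 0.45, 0.42 and 0.36. No gene of the wider atrial list was among those of MYL7 or BMP10. Over the 37 animals without 549 the same 3 genes led for MYL7 (0.62 to 0.66) and for BMP10 (0.70 to 0.79). For MYL2 the leading genes were then KCNJ4 with 0.87, ZDHHC14 with 0.80 and ACTN2 with 0.79. For IRX4 they were REPIN1 with 0.79, NKX2-5 with 0.78 and HAND1 with 0.75. The relation of IRX5 to IRX3, another Iroquois factor, was chosen after its values had been seen. Over the 37 animals IRX3 had the highest rho to IRX5 of all these genes that carry a symbol. A p-value for a pair picked in this way would test nothing, and none is given. IRX5 followed IRX3, with r = 0.93 and rho = 0.92 over the 37 animals and r = 0.91 without 503 and 495. The rho was 0.89 and 0.92 within the earlier and later animals.

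The 2 extractions were compared with edgeR with sex as a covariate. Over 38 animals 16.1% of 15790 genes passed, and 4 of 10 members were among them, all lower in the later set: MYL7 by -2.02 ± 0.60, MYL4 by -2.03 ± 0.68 and SLN by -3.38 ± 0.76 on the log2 scale, and BMP10. 549 belongs to the earlier set. Without it 15.4% of genes passed, and the members were SLN, at -1.57 ± 0.45 (edgeR adjusted p = 0.0135), and BMP10 (edgeR adjusted p = 3.73e-05). MYL7 was then at -0.75 ± 0.58 and MYL4 at -0.08 ± 0.34, and neither passed. No ventricular member passed in either fit. SLN had a median of 1.04 CPM in the 16 earlier animals other than 549 and 0.355 CPM in the 21 later ones, and the groups overlapped. In the wider lists, MYBPHL and HAMP were lower in the later set with 549 in the earlier one, by -3.77 ± 0.94 and -2.89 ± 0.76, and without 549 SHOX2 alone passed, higher by 1.51 ± 0.42 (edgeR adjusted p = 0.0106).

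For BMP10 the difference was one between a few reads and none. The 16 earlier animals other than 549 had 0 to 60 counts with a median of 26, and 9 of them had 20 counts or more. Of the 21 later animals 14 had 0 counts, and 295, with 27 counts, was the only 1 with 20 or more. The highest count of 60, in 4x523, was 0.0215% of the 279486 counts in 549. These counts were thus higher in the set that also holds 549, and the part of 549 in them was not tested. Since the median of the later animals is 0, no fold is given.

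Finally, the spread of each gene was expressed in a form like the study's. It is the natural log of the negative binomial overdispersion minus the trend over the mean. Here gene counts were fitted and not the orthologous exon counts that the study used, so the values are not set beside the study's. A value of 0 is the spread of an average gene at that level, and the SE comes from 1000 redraws of the animals with replacement. SLN, BMP10 and NR2F1 passed the 6 CPM filter through 549 alone, so their values over 38 animals were fixed in part by that filter and are left out of the counts. Of the other 7 members, 7 lay above 0 over 38 animals, beside 44.4% of 13121 genes. BMP10 had 5.15 ± 2.43 and rank 1, MYL4 3.21 ± 0.96 and rank 29, MYL7 2.96 ± 0.36 and rank 53, and SLN 2.50 ± 1.47 and rank 111. Without 549 5 of these 7 lay above 0, beside 44.6% of genes. MYL7 still had 2.35 ± 0.18 at rank 138, IRX5 had 1.66 ± 0.17 at rank 592 and MYL4 had 1.37 ± 0.24 at rank 989. BMP10 dropped to 0.27 ± 0.25, SLN to -0.07 ± 0.32 and NR2F1 to -0.03 ± 0.27. MYL3 went from 0.58 ± 0.68 to -0.36 ± 0.32 and IRX4 from 0.67 ± 0.62 to -0.16 ± 0.39. HEY2 and MYL2, with 0.63 ± 0.22 and 0.69 ± 0.29 without 549, changed by less than 1 SE.

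**Figure D5:**
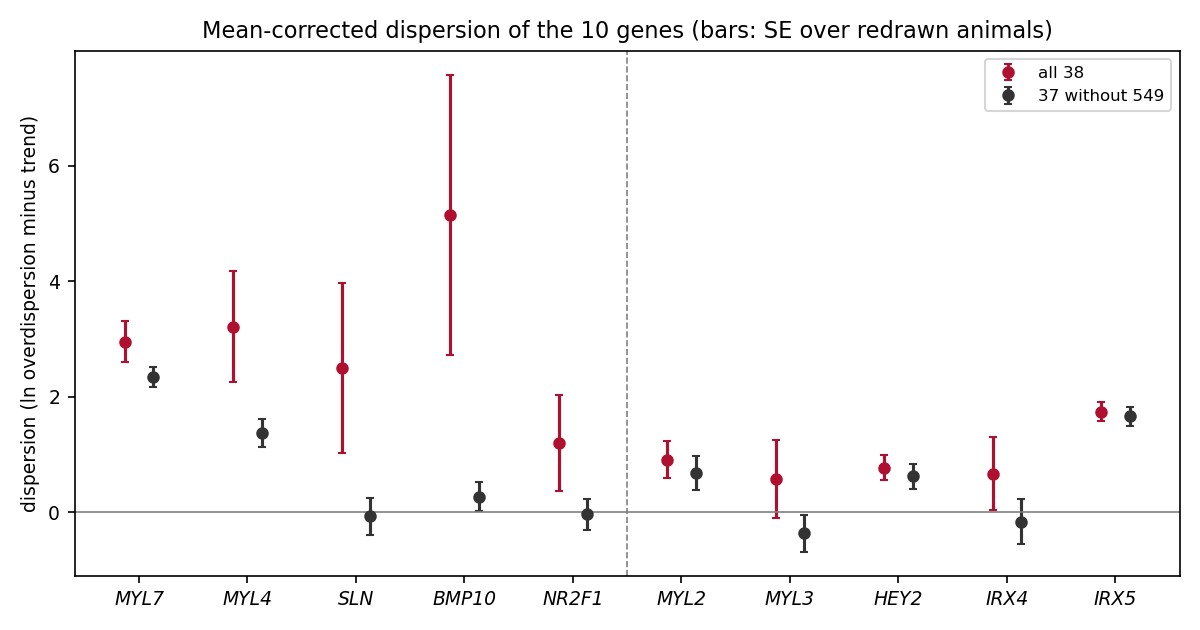
Dispersion of each gene (natural log of the overdispersion minus the trend over all genes) with bars of 1 SE, in red over all 38 animals and in black over the 37 without 549. Without 549, MYL7, MYL4 and IRX5 stay above 1 and SLN, NR2F1, MYL3 and IRX4 lie slightly below 0.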

How the data were processed

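The authors aligned the reads with STAR (version 2.6.1b in the submitters' processing notes) to Pan_tro_3.0 and deposited whole-number counts per gene from STAR's gene counting. The orthologous exon counts were deposited from featureCounts 1.6.3. The deposited normalized matrix holds a score per gene (standardized log CPM, quantile normalized per animal) for 37 animals and 13545 genes, with 7 of the 10 members, and served as an alternative. Whether counting used strand is not given in the sources used here. The extraction of each animal and its sex came from the study's sample table. In all, 52 per-sample columns that belong to no sample of this series (49 of them human) were not used. Symbols were matched by Ensembl ID for 18040 of 31373 genes. GJA1 and UPK3B were not matched.

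CPM were gene counts per 1000000 orthologous exon counts, with a pseudocount of 0.5 CPM on the log2 scale. Fits used edgeR 4.0.16 (TMM, filterByExpr, quasi-likelihood) in R 4.3.3 over all genes, with the predictor gene left out of counts, and SEs from the F statistic. DESeq2 1.42.0 was an alternative. Correlations used 100000 permutations. Overdispersion was fitted by maximum likelihood for genes that reached 6 CPM in any of the 38 animals, also where animals were left out, with a LOESS span of 0.75 and SEs from 1000 redraws of the animals around the full trend. Fits and overdispersion were tested on simulated data. No pair of libraries looked like 1 library deposited again.

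The named genes were the 10 members, list genes that passed a test or were counted, and the 15 leading genes of 549. Also named were the 3 genes with a symbol and the highest rho to MYL7, BMP10, MYL2 and IRX4, with and without 549. The members and lists were chosen with earlier results of these data known. Alternatives changed the test, the scaling, the filter, the covariates, the pseudocount, the trend and the animals. The values of 1 gene of the wider atrial list are not reported here.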

Additional observations from a re-analysis of the deposited data

How the results depend on the processing

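At each scaling and without 549, 7 of 10 members had a median of at least 6 CPM. The number of genes that differed between the extractions stayed within 1.5 times of 2536 wherever it was recomputed. Against 274 genes related to MYL7, DESeq2 gave 416, no filter beyond 1 count 652, the extraction as a covariate 114, leaving out 537 and Little_R 132, the earlier animals alone 64 and the later animals alone 0, where edgeR gave 1416 at an unadjusted p under 0.05. Settings chosen after seeing the data, all without 549, gave 435 with DESeq2, 536 with the mitochondrial share and 46 with the extraction as a covariate, 5 without 537 and Little_R and 1 in the earlier animals. Against 5503 genes related to MYL2, there were 1757 without 537 and Little_R, 162 in the earlier animals and 409 in these without 549. Of the 45 pairs, 9 passed by rho over 38 animals, 14 with TMM sizes, 5 without 537 and Little_R, 3 without these and 549, 2 in the earlier animals and 0 in these without 549. Dispersions above 0 fell from 10 to 6 without 549, but that count holds the 3 genes that passed the filter through 549 alone. With these 3 left out it was 7 with 549 and 5 without it, beside 44.4% and 44.6% of 13121 genes. The cause of these shifts was not tested, and the subsets hold fewer animals.

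Slopes that turned sign mostly did so without 549. On MYL2, MYL7 had 0.58 without 549, 0.57 in the later animals and 0.75 in the earlier ones without 549. With a further change beside leaving out 549, it had 0.39 without 537 and Little_R, 0.56 with DESeq2, 0.62 and 0.66 with the extraction and the mitochondrial share as covariates and 0.47 without TMM. In the same order, MYL4 had 0.55, 0.64, 0.62, 0.44, 0.53, 0.64, 0.72 and 0.44. BMP10 had 0.69 without 549. With 549 left out in each case, it had 0.58 without 537 and Little_R, 0.76 with DESeq2, 0.43 and 0.61 with the covariates and 0.58 without TMM. SLN had 0.12 without 549. With 549 left out in each case, it had 0.29 in the earlier animals, 0.48 without 537 and Little_R, 0.10 with DESeq2, 0.076 with the mitochondrial share and 0.043 without TMM. Without 549, IRX4 had -0.059 without 537 and Little_R and -0.00048 without TMM, and IRX5 had -0.12 in the earlier animals. On MYL7, NR2F1 had -0.12 without 549 and -0.087 in the later animals. With 549 left out in each case, it had -0.12 with DESeq2, -0.033 and -0.088 with the covariates and -0.15 without TMM. SLN had -0.12 in the earlier animals without 549, -0.13 in the later ones and -0.13 with the extraction as a covariate without 549. No paired analysis was possible because the labels give 1 group.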
